A study of Mus musculus with 6 samples.

Results

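Hepatocyte growth factor (Hgf), its receptor Met, the protease urokinase (Plau), the urokinase receptor (Plaur) and the protease inhibitor Serpine2 were followed in muscle stem cells of mice. These 5 genes were chosen by name, not by their measured values, but with earlier results of these data known. All 5 were found among the 45527 named genes of the count table. Each of them passed the low-count filter and was among the 16252 genes tested. RNA was sequenced from satellite cells, the stem cells of skeletal muscle, which were sorted by yellow fluorescent protein 24 h after the lower hindlimb had been injured with 30 µl of cardiotoxin, a snake toxin that destroys muscle fibres. All mice carried Pax7creER, a tamoxifen-activated Cre recombinase expressed where Pax7 is active, and the Cre-dependent reporter R26R-YFP. The 3 control libraries came from Paxbp1flox/+ mice, which have a single floxed allele of Paxbp1, and the 3 Paxbp1-iKO libraries (inducible knockout) from Paxbp1flox/flox mice. The controls thus also carried Cre and could lose their floxed allele, and the sources used here state neither the age of the mice nor the tamoxifen dose. The series describes 3 pairs of mice but does not say which libraries form a pair or whether each is a single animal, so p-values cover the spread between these libraries only, which may be technical.

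HGF is secreted as an inactive precursor that is held in the matrix around muscle fibres and is cut by serine proteases into the form that binds Met, a receptor tyrosine kinase. In muscle this signal is known for waking satellite cells from quiescence after injury and for guiding their migration. Urokinase, held at the cell surface by its receptor, turns plasminogen into plasmin, which degrades matrix, and it can also cut the HGF precursor. Serpine2, also called protease nexin-1, is a secreted serpin that blocks urokinase, plasmin and thrombin.

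Libraries held 23327359 to 28050748 counts. Paxbp1, the targeted gene, was higher in every iKO-labelled library than in any control (68.6 ± 6.81 CPM in controls and 110.2 ± 15.4 CPM in iKO-labelled libraries; CPM are counts scaled to library size with TMM factors; mean ± SD, n = 3 per group here and below). This goes against the label, and counts over the whole gene cannot show whether the floxed part was lost, so the groups are named by their labels throughout. The satellite cell factors Pax7, Myf5 and Myod1 were present in all libraries, with Myod1 at 1706 ± 168 CPM in controls. Of all tested genes, 1324 were called higher and 1991 lower in iKO-labelled libraries by edgeR's quasi-likelihood test at a Benjamini-Hochberg adjusted p under 0.05, a share of 20.4%. When libraries were scaled by their totals, the calls were 1921 higher and 1440 lower (57.2% higher against 39.9%), and the median log2 fold change of all genes was 0.16 against 0.02. Without iKO 2 the calls numbered 2053, and without iKO 3 they numbered 2103. The groups did not overlap for 39.8% of tested genes. The share called depends on level: when only genes of at least 5 CPM in 3 libraries were tested, 3562 of 10340 were called, a larger share than 20.4%.

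Of the 5 members, Serpine2 rose, Met fell and the other 3 were not called (2 of 5 called, against 20.4% of all tested genes). Among all tested genes 8.15% were called higher and 12.3% lower. In sorted bulk RNA, fewer cells of a type and less RNA per cell cannot be told apart. The median log2 fold change of the members was -0.12, against 0.02 for all tested genes. The plot of members by library shows that Serpine2 was the member whose groups did not overlap. All iKO-labelled libraries lay above all controls for 1 of 5 members and for 18.9% of tested genes, and below them for none of the 5 members and for 20.9% of tested genes.

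**Figure D1:**
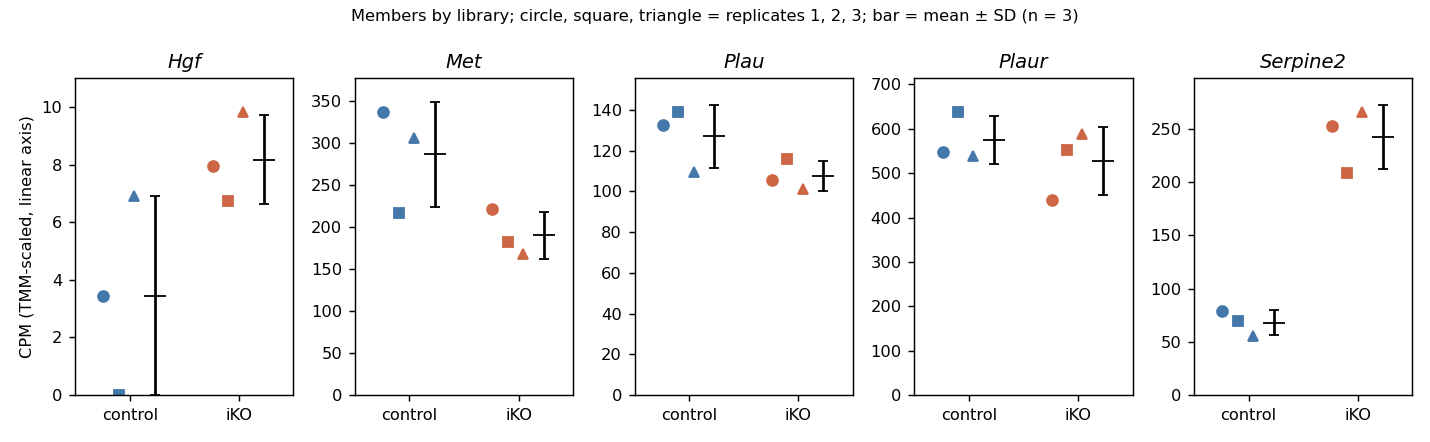
CPM (TMM-scaled, linear axes from 0) of Hgf, Met, Plau, Plaur and Serpine2 in 3 control and 3 iKO-labelled libraries; points are libraries and bars the mean ± SD. Serpine2 lies at 55.2 to 78.9 CPM in controls and at 209 to 266 CPM in iKO-labelled libraries, whereas the groups of the other members overlap.

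The sequences shown lie just before annotated starts of the members that were called. They were taken from RefSeq (GRCm38.p6), which gave windows for 4 of the 5 members, and end where an annotated exon begins. Capitals mark matches, on either strand, to the GC box GGGCGG, the E-box CANNTG, the AP-1 motif TGANTCA or the TATA motif TATAAA. The Serpine2 stretch is chr1:79858697-79858915 on the minus strand and the Met stretch chr6:17463707-17463799 on the plus strand. The Serpine2 stretch lies inside the annotated span of the gene (79794197 to 79861180), before a start internal to it.
Serpine2: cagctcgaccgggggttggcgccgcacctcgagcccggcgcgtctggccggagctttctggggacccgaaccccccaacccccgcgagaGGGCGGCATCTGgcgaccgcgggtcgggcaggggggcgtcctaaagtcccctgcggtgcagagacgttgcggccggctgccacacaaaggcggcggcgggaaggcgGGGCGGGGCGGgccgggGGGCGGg
Met: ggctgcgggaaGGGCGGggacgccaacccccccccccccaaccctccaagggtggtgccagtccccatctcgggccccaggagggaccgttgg
The Serpine2 stretch is rich in GC boxes: its full window of 300 bases, from 250 before to 50 after the RefSeq start, held 6, beside 1 E-box that adjoins the most distant of them. The full Met window held 3 GC boxes, 2 E-boxes and 1 AP-1 motif 54 bases before the RefSeq start, in a part that other transcripts of Met include as exon and that is not printed. Of 32544 such windows of all genes, 35.9% held a GC box, 72.3% an E-box, 7.79% an AP-1 motif and 13.6% a TATA motif. No TATA motif was found in either window. These matches describe the sequence and were not tied to the changes in level.

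Levels of different genes were compared on FPKM, which are scaled to gene length. In each of the 3 controls the order from high to low was Plaur, Plau, Met, Serpine2 and Hgf. In each of the 3 iKO-labelled libraries Serpine2 stood above Met, and the rest of the order was the same. Plaur had 379, 447 and 379 FPKM in controls and 312, 391 and 415 FPKM in iKO-labelled libraries, above 99.0% of tested genes in every library. Plau followed at 54.7, 58.1 and 46.0 FPKM in controls and 44.5, 48.7 and 42.6 FPKM in iKO-labelled libraries. The RNA of the urokinase receptor was therefore several times as abundant as that of urokinase. The Plaur to Plau ratio in FPKM was 7.62 ± 0.658 in controls and 8.26 ± 1.38 in iKO-labelled libraries. Protein was not measured here. These ratios overlapped between groups. In controls the ranges of neighbours in the order did not overlap, and in iKO-labelled libraries those of Serpine2 (24.9 to 31.6 FPKM) and Met (21.5 to 28.4 FPKM) did, although Serpine2 was the higher in each library.

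**Figure D2:**
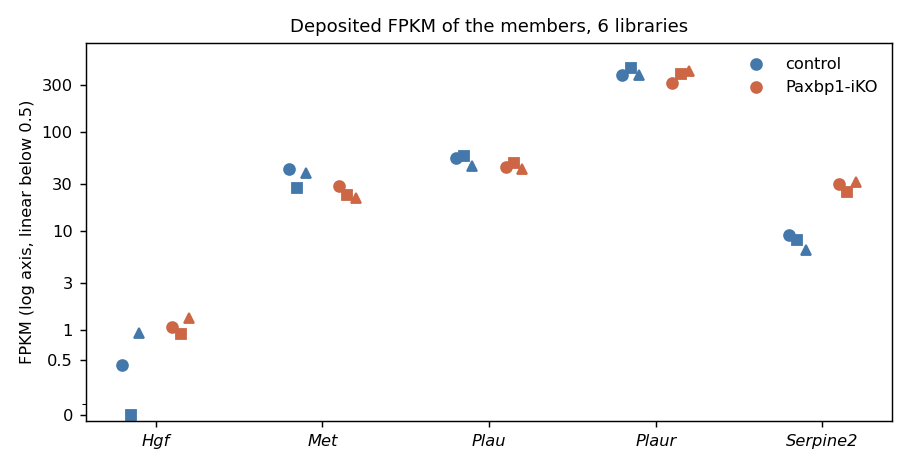
FPKM of the 5 members in each library (log axis, linear below 0.5; circle, square and triangle are replicates 1, 2 and 3). Plaur is the highest and Hgf the lowest in all 6 libraries, and Serpine2 moves from below Met in controls to above it in iKO-labelled libraries.

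Hgf, the ligand (ENSMUSG00000028864.7, plus strand of chromosome 5, 16553495 to 16620152 in GRCm38), was scarce in the sorted cells and varied most among the controls. It had 77, 0 and 180 counts in controls 1 to 3 and 227, 198 and 242 counts in iKO 1 to 3. In CPM the controls stood at 3.44, 0 and 6.90 and the iKO-labelled libraries at 7.96, 6.75 and 9.81. The groups overlapped, since iKO 2 lay just below control 3. The log2 fold change was 1.24 ± 1.1 (iKO-labelled against control, ± SE here and below) and was not called (adjusted p = 0.496, edgeR). The size of the difference rests on control 2, a library of 27198506 counts in which 3 counts would be 0.116 CPM. Fewer named genes had any count in control 2 (20508) and control 3 (20393) than in control 1 (24334) or the iKO-labelled libraries (22964 to 25433). Whether the missing Hgf counts go with this was not tested. Without it the log2 fold change was 0.66 (adjusted p = 0.33), without control 3 it was 2.27, and limma-voom gave 3.46 (adjusted p = 0.133). Hgf shares exon bases with the predicted gene Gm43489, which had 0 counts in every control and 24, 3 and 12 counts in iKO 1 to 3. The library protocol does not mark strand, so reads of these genes cannot be told apart where they overlap.

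Fibro-adipogenic cells and macrophages are known sources of HGF in injured muscle, and markers that such cells express were read beside it. None of the 11 tested fibro-adipogenic markers and none of the 12 macrophage and monocyte markers was called, against 20.4% of all tested genes. The fibro-adipogenic markers summed to 2180 to 2586 CPM in controls and 1987 to 2455 CPM in iKO-labelled libraries, with Gsn at 1289 ± 179 and 1212 ± 73.9 CPM, a gene that many cell types express, and Pdgfra, their defining receptor, at 2.95 ± 1.31 and 4.40 ± 2.27 CPM. The macrophage markers summed to 191 to 288 CPM and 195 to 323 CPM. Control 2, which had no Hgf count, was within the range of the other controls on both sums (2336 and 231 CPM). On the neutrophil markers it had the lowest sum of all libraries (2.98 CPM, against 11.7 and 10.7 CPM in controls 1 and 3). In that list 4 of 8 markers were under 1 CPM in both groups. Whether the Hgf counts come from satellite cells was not tested.

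Among the proteases that cut the HGF precursor and their inhibitors, St14 rose the most. St14 encodes matriptase, a membrane-bound protease that activates HGF. It had 31, 30 and 36 counts in the controls and 342, 272 and 247 counts in the iKO-labelled libraries, so every iKO-labelled library stood well above every control. Its level rose from 1.31 ± 0.129 to 10.4 ± 1.40 CPM (log2 fold change 2.99 ± 0.29, adjusted p = 5.15e-04). On log2(FPKM + 1), which compresses low levels, the change was 1.34 and was still called. Serpina3n, a serpin, rose from 28.3 ± 11.1 to 54.4 ± 6.35 CPM (0.94 ± 0.27, adjusted p = 0.0435). Leaving out any library other than control 1 ended that call (adjusted p up to 0.141). Of 14 genes listed here, 6 were tested, 2 were higher and none was lower (33.3% called, against 20.4% of all tested genes). The HGF activator Hgfac was close to the floor, at 0.300 ± 0.264 and 0.475 ± 0.643 CPM, and the matriptase inhibitors Spint1 (0.599 ± 0.550 and 1.56 ± 0.705 CPM) and Spint2 (1.46 ± 0.448 and 1.70 ± 0.797 CPM) were not called (adjusted p = 0.483 and 0.845). The tissue-type plasminogen activator Plat was the abundant protease of the list, at 219 ± 29.3 and 175 ± 33.8 CPM, and was not called (adjusted p = 0.191).

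Genes that bind HGF in the matrix or open that matrix moved in both directions. Among the 16 that could be tested, 2 were called higher and 4 lower (37.5% called, against 20.4% of all tested genes). Their median log2 fold change was -0.24, against 0.02 for all genes. Mmp2, a gelatinase known for freeing HGF from the matrix, stood at 93.5, 48.2 and 69.0 CPM in the controls and at 237, 264 and 219.8 CPM in the iKO-labelled libraries. The groups were far apart, and the rise was 3.42-fold (1.78 ± 0.22, adjusted p = 0.00126). Timp1, an inhibitor of matrix metalloproteinases, fell from 218 ± 9.63 to 105 ± 5.03 CPM (-1.05 ± 0.08, adjusted p = 1.94e-04). Sdc4, a heparan sulphate proteoglycan that marks satellite cells, was the most abundant gene of this list and rose from 3911 ± 251 to 6087 ± 214 CPM (0.64 ± 0.06). The hyaluronan receptor Cd44, certain isoforms of which act with Met, fell from 2758 ± 294 to 2005 ± 122 CPM (-0.46 ± 0.09, adjusted p = 0.00816). These calls of Mmp2, Timp1, Sdc4 and Cd44 held under all 16 alternatives.

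Met (ENSMUSG00000009376.15, plus strand of chromosome 6, 17463800 to 17573980 in GRCm38, up to 22 exons in a transcript) was lower in iKO-labelled libraries. Its levels were 336, 217 and 305 CPM in controls 1 to 3 and 221, 182 and 167 CPM in iKO 1 to 3. Controls 1 and 3 stood above all iKO-labelled libraries, but control 2 lay just below iKO 1, so the groups overlapped. The mean fell from 286 ± 62.0 to 190.0 ± 27.8 CPM, a 1.51-fold decrease (-0.59 ± 0.17, adjusted p = 0.0445, edgeR). The call is close to the threshold and rests on single libraries. It was lost when control 1, control 3, iKO 2 or iKO 3 was left out (adjusted p up to 0.153), with upper-quartile scaling (adjusted p = 0.066) and with scaling by library totals (-0.46, adjusted p = 0.0942), while DESeq2 gave adjusted p = 0.00392. The direction was the same in all 16 alternatives, with values from -0.75 to -0.46.

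**Figure D3:**
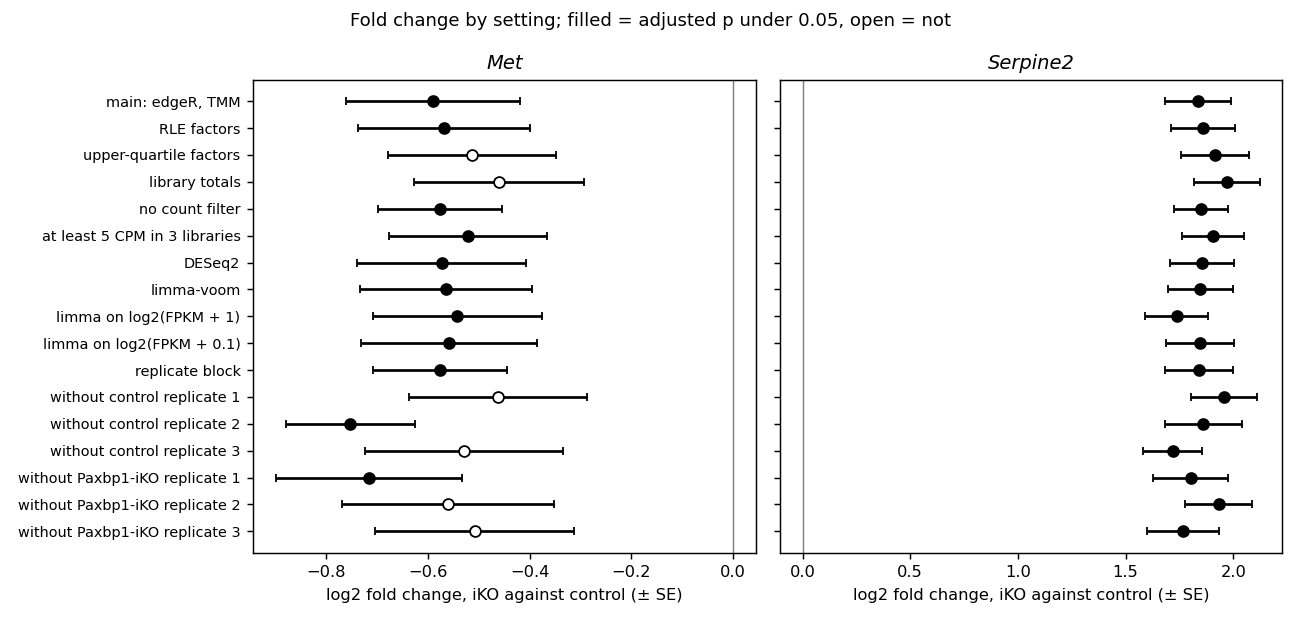
Log2 fold change ± SE of Met (left) and Serpine2 (right) in the main analysis and under 16 alternative settings (panels have different horizontal scales; filled points have an adjusted p under 0.05). Met is called in 10 of the 16 alternatives and stays between -0.75 and -0.46, and Serpine2 is called in all 16, between 1.72 and 1.97.

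Of 11 tested receptors that pair with Met or resemble it, 3 were lower and 1 was higher. The share called was 36.4%, against 20.4% of all tested genes, and the list's median log2 fold change was -0.46. Nrp1, a co-receptor of several growth factors, fell from 166 ± 28.8 to 90.1 ± 15 CPM (log2 fold change -0.88 ± 0.16, adjusted p = 0.00736). The semaphorin receptor Plxnb2 fell from 131 ± 18.2 to 85.9 ± 4.06 CPM (-0.61 ± 0.12). The tetraspanin Cd151 rose from 57.2 ± 7.06 to 82.5 ± 4.62 CPM (0.53 ± 0.12, adjusted p = 0.0196). That call was lost on leaving out any library other than control 3 (adjusted p up to 0.0711). Mst1r, the close relative of Met, and its ligand Mst1 were too low to be tested (0.858 ± 1.27 and 0.102 ± 0.0888 CPM for Mst1r, 60 of its counts being in control 2).

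Downstream of Met, 12 of 38 tested adaptor and signalling genes were called lower and 2 higher, or 36.8% called against 20.4% of all tested genes, and the list's median log2 fold change was -0.20. Ptpn11, the phosphatase Shp2 that carries the signal from Met to Ras, had the smallest p-value of the list. Its levels were 88.6, 98.2 and 89.8 CPM in controls and 28.7, 37.4 and 38.7 CPM in iKO-labelled libraries. The groups did not overlap, and the log2 fold change was -1.40 ± 0.14 (adjusted p = 5.66e-04). Ptk2, the focal adhesion kinase, fell from 91.2 ± 8.69 to 37.6 ± 6.25 CPM (-1.28 ± 0.15), Pak1, a kinase of cell movement, from 257 ± 35.5 to 122 ± 14.7 CPM (-1.08 ± 0.13), and Map2k1, the kinase that activates ERK, from 297 ± 14.1 to 142 ± 25.4 CPM (-1.07 ± 0.13). Gab1, the docking protein that binds Met itself, stood at 28.8 ± 8.45 and 32.1 ± 1.52 CPM and was not called (adjusted p = 0.689). Its sign turned without control 3 (-0.053).

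Genes for the shedding, cleavage and turnover of Met were lower or not called. Among 18 tested genes 6 were called lower and none higher (33.3% called, against 20.4% of all tested genes, and a median log2 fold change of -0.19). Adam10, a protease that sheds the outer part of Met, fell from 117 ± 6.18 to 72.4 ± 3.28 CPM (-0.70 ± 0.09, adjusted p = 0.00196). Usp8, a deubiquitinase of receptor sorting, fell by 0.59 ± 0.12 on the log2 scale. Adam17, a related sheddase, fell from 122 ± 12.6 to 83.2 ± 7.50 CPM (-0.55 ± 0.12, adjusted p = 0.013). Its call did not hold on leaving out control 2, control 3 or iKO 3 (adjusted p up to 0.0552).

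Genes that respond to ERK, the kinase pathway that Met activates, showed no common direction. Among 16 tested genes 1 was called higher and 2 lower (18.8% called, against 20.4% of all tested genes, median log2 fold change -0.03). Among the Sprouty feedback inhibitors, Spry2 fell from 624 ± 43.9 to 398 ± 45.8 CPM (-0.65 ± 0.10, adjusted p = 0.00331) and Spry4 rose from 52.3 ± 5.76 to 75.5 ± 2.70 CPM (0.53 ± 0.12, adjusted p = 0.0168). The call of Spry4 ended without iKO 2 (adjusted p = 0.0698). The early response gene Ier3 fell from 228 ± 4.34 to 162 ± 10.7 CPM (-0.49 ± 0.08). Many other receptors feed these genes, so they do not read out Met alone.

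Plau (ENSMUSG00000021822.3, plus strand of chromosome 14, 20836660 to 20843385 in GRCm38) had 133, 139 and 109.7 CPM in controls and 105, 116 and 101 CPM in iKO-labelled libraries. Control 3 lay within the range of the iKO-labelled libraries, and the difference was not called (127 ± 15.4 and 108 ± 7.45 CPM, log2 fold change -0.24 ± 0.11, adjusted p = 0.189). It was not called under any of the 16 alternatives (adjusted p from 0.0911 to 0.56). Plaur (ENSMUSG00000046223.10, plus strand of chromosome 7, 24462484 to 24475968 in GRCm38) had 548, 637 and 538 CPM in controls and 441, 553 and 588 CPM in iKO-labelled libraries. The groups were interleaved, and Plaur was not called (575 ± 54.5 and 527 ± 77.0 CPM, -0.12 ± 0.12, adjusted p = 0.53); its sign turned with scaling by library totals (0.011).

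The rest of the plasminogen system was likewise mostly not called: of 15 tested genes, 2 were lower and none was higher, a share of 13.3% against 20.4% of all genes. Eno1, a glycolytic enzyme that also binds plasminogen at the cell surface, fell from 1308 ± 131 to 806 ± 81.3 CPM (-0.70 ± 0.10, adjusted p = 0.00239); near-identical copies of Eno1 in the genome could share its reads. Anxa2, which together with S100a10 binds plasminogen and Plat, fell from 1085 ± 90.8 to 856 ± 17.8 CPM (-0.34 ± 0.07, adjusted p = 0.0136). Anxa2 missed the threshold on leaving out control 2, control 3 or iKO 3 (adjusted p up to 0.0582) and with scaling by library totals (adjusted p = 0.0782). Lrp1, the endocytic receptor that clears complexes of urokinase and serpin, stood at 89.6 ± 29.6 and 115 ± 16.1 CPM (adjusted p = 0.325). The matrix protein Vtn, a ligand of the urokinase receptor, was at 46.5 ± 15.7 and 26.1 ± 5.47 CPM (-0.83 ± 0.27, adjusted p = 0.0638), past the threshold under 6 of 16 alternatives (DESeq2 adjusted p = 0.00884, and 0.0192 without control 2).

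Of 13 tested partners of the urokinase receptor, 1 rose and 1 fell (15.4% called, against 20.4% of all tested genes). The integrin subunit Itgb1 fell from 968 ± 26.2 to 778 ± 69.0 CPM (log2 fold change -0.31 ± 0.08, adjusted p = 0.0223). Igf2r, the receptor for insulin-like growth factor II and mannose 6-phosphate, rose from 59.8 ± 7.53 to 96.4 ± 20.3 CPM (0.69 ± 0.17, adjusted p = 0.0235). Itgb1 missed the threshold when control 1, control 3 or iKO 3 was left out (adjusted p up to 0.0756) and with upper-quartile and library-total scaling (adjusted p up to 0.15). Igf2r missed it when control 2, control 3 or iKO 3 was left out (adjusted p up to 0.0718).

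Serpine2 (ENSMUSG00000026249.10, minus strand of chromosome 1, 79794197 to 79861180 in GRCm38) rose. The GC-rich stretch before its internal RefSeq start is printed with the stretch of Met. Serpine2 had 1765, 1800 and 1442 counts in the controls and 7218, 6126 and 6555 counts in the iKO-labelled libraries. In CPM these were 78.9, 69.6 and 55.2 against 253, 209 and 266, so the lowest iKO-labelled library stood far above the highest control. The mean rose from 67.9 ± 11.9 to 243 ± 29.9 CPM, a 3.57-fold increase (1.84 ± 0.15, adjusted p = 2.51e-04). By the size of its change it exceeded 93.3% of all tested genes, and by its p-value it ranked 125 of 16252. The call held under all 16 alternatives (log2 fold change from 1.72 to 1.97, adjusted p up to 0.00303). Among the tested genes of a library, Serpine2 moved from the percentiles 62.3 to 69.1 of FPKM in controls to 85.0 to 88.1 in iKO-labelled libraries. Set against its target, the ratio of Serpine2 to Plau in FPKM was 0.168, 0.142 and 0.142 in controls and 0.678, 0.510 and 0.742 in iKO-labelled libraries. The groups of this ratio did not overlap, while Plau itself was not called.

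Thrombin is the other main target of Serpine2. Among 9 tested genes of the thrombin receptors and the start of coagulation, 1 rose and 1 fell. The share called was 22.2%, against 20.4% of all tested genes. The thrombin receptor F2r was abundant and somewhat higher in every iKO-labelled library, at 591 ± 73.8 and 705 ± 63.5 CPM, a difference that was not called (0.25 ± 0.11, adjusted p = 0.142) except with scaling by library totals (adjusted p = 0.0409) and under a stricter filter on low counts (adjusted p = 0.0356). Tfpi2, a secreted inhibitor of plasmin and other serine proteases, rose from 20.8 ± 5.43 to 52.2 ± 3.46 CPM (1.33 ± 0.20, adjusted p = 0.00318). Its relative Tfpi, the inhibitor of tissue factor, fell from 21.7 ± 2.22 to 10.8 ± 3.84 CPM (-1.01 ± 0.29, adjusted p = 0.0429), and that call did not survive leaving out any library other than iKO 1 (adjusted p up to 0.111) and with upper-quartile or library-total scaling.

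**Figure D4:**
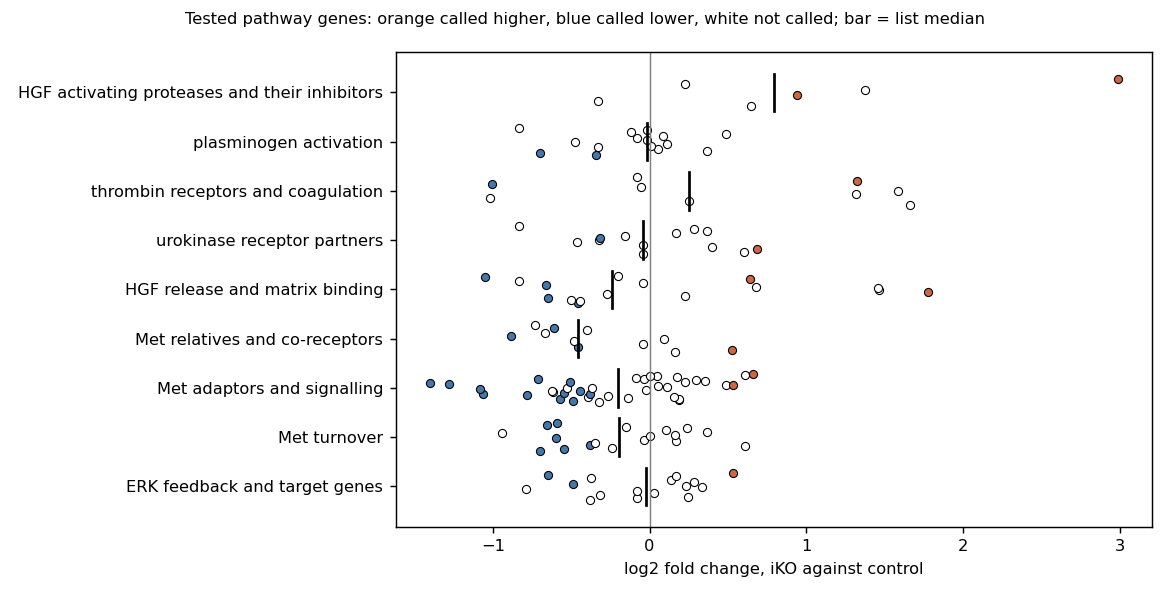
Log2 fold change of each tested gene in the 9 lists around the members (orange called higher, blue called lower, white not called; the bar is the list's median). The lists of Met signalling, turnover and co-receptors hold 12 of 38, 6 of 18 and 3 of 11 genes called lower. They hold 2, 0 and 1 genes called higher. Of all tested genes 12.3% were called lower and 8.15% higher. St14 is the point farthest to the right.

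Across the 9 lists, 137 of 155 genes were tested, of which 10 were higher and 30 lower, a share of 29.2% against 20.4% of all tested genes. Some genes stand on more than a single list. The lists were chosen with earlier results of these data known, so these counts are a description. The shares called in the lists were not set against genes of like level, and the share over all genes was larger under a stricter filter on low counts. Markers of other cell types were also read beside them. Of the 12 satellite cell markers 6 were higher and 3 lower (75% called, against 20.4% of all tested genes). Their median log2 fold change was 0.39. Their sums were 9933 to 10419 CPM in controls and 12449 to 13069 CPM in iKO-labelled libraries. The abundant Sdc4, whose rise is given above, is part of these sums. Pax7 stood at 11.3 ± 2.14 and 49.5 ± 1.70 CPM and does not stand for the list, which moved in both directions. Of this list, values in both groups are given only for Pax7 and Sdc4, which rose, and not for the 3 lower markers. Of 9 tested muscle fibre markers, 2 were lower and none was higher (22.2% called, against 20.4% of all tested genes). Their sums were 82.1 to 126 CPM in controls and 33.5 to 40.2 CPM in iKO-labelled libraries. The smooth muscle and pericyte markers summed to 362 to 453 CPM and 216 to 336 CPM. Of them Acta2 fell from 197 ± 55.0 to 41.9 ± 7.47 CPM and the other 7 were not called (12.5% called). None of the tested neutrophil (5), endothelial (8), glial (5) or tendon (5) markers was called, against 20.4% of all tested genes. For 2 tendon markers all iKO-labelled libraries lay below all controls, as for 20.9% of all tested genes. The neutrophil marker Ly6g was at or near 0. The part of these cell types in the changes of Met and Serpine2 was not tested.

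The genes whose levels followed Serpine2 most closely over the 6 libraries were Ak1, an adenylate kinase (Pearson r = 0.9984), and Hspa1a, an inducible chaperone (r = 0.9975), with 324 of 8784 genes above an r of 0.95. For Met they were Vta1 (r = 0.9969) and Dcun1d1 (r = 0.985), with 40 genes above that value. For Plau they were Reep3 (r = 0.9875) and Dusp3 (r = 0.9847), for Plaur Peli1 (r = 0.9918) and Ttc3 (r = 0.9822), and for Hgf Tlr4 (r = 0.9936) and Senp6 (r = 0.991). With so few libraries such values are a description, and all genes share the library depth and the difference between groups.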

How the data were processed

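RNA from sorted satellite cells was reverse transcribed and amplified by Smart-Seq2, per the labels' protocols, which does not mark strand. Per the submitters' processing notes, the tools were STAR, Trim Galore, DESeq2 and Subread's featureCounts and the build was mm10, with no versions or roles. The gene annotation and the strand setting were not given in the sources used here. The authors deposited raw read counts per gene and FPKM for 46078 rows, of which 551 without a gene name (0.108% to 0.123% of counts) were left out. The deposited FPKM were scaled by size factors of the median-of-ratios kind, not by library totals: the ratio of counts to FPKM gave those factors to within 9.33e-15 over 11939 well-counted genes.

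Counts were fitted in R 4.3.3 with edgeR 4.0.16 (filterByExpr with minimum count 10 and minimum total 15, TMM factors, quasi-likelihood model with group as its only term) on all 6 libraries. P-values were adjusted by Benjamini-Hochberg over all tested genes, with a threshold of 0.05. SEs of log2 fold changes were derived from the F statistic. The fit was tested on simulated data, which does not show that a gene not called is unchanged. Alternatives were scaling by RLE, by upper quartiles and by library totals, no count filter, at least 5 CPM in 3 libraries, DESeq2 1.42.0, limma 3.58.1 (voom, and log2 FPKM with a pseudocount of 1 or 0.1 and a mean FPKM of at least 1), the replicate number as a block, and each library left out in turn.

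The members and lists were chosen with earlier results of these data known. Named were all members, the called genes of each list (the 4 smallest p-values where more were called), fixed direct partners of the members, marker genes of high level, and for each member the 2 genes of highest Pearson r among genes, predicted models aside, whose mean log2 CPM reached 3. Some marker genes taken by that rule are given only in sums, and Pdgfra, Ly6g, Pax7 and S100a10 are named outside it. Some genes that this rule takes are not reported here. Positions come from GENCODE M21.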

Additional observations from a re-analysis of the deposited data

How the results depend on the processing

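The rise of Serpine2 kept its direction and its call under all 16 alternatives, and Plau and Hgf kept their direction and were not called under any that gave a value. Hgf had no value on log2 FPKM, since its mean FPKM is under 1. The fall of Met was not called with upper-quartile factors (-0.51) or library totals (-0.46), and ran from -0.75 to -0.46 when a library was left out. Plaur turned sign with library totals (0.011). Leaving out single libraries gave Hgfac from -1.48 to 1.25 and Gab1 from -0.053 to 0.35, 2053 to 2816 genes called and 706 to 1159 genes called higher. DESeq2 called 2100 genes higher. The cause was not tested. Of the 33 pathway genes named, 21 kept direction and call throughout, 8 lost a call somewhere and 2 gained one. With the replicate number as a block, 2215 genes were called, 813 of them higher. Among the members and the pathway genes named, the block ended the calls of Serpina3n (adjusted p = 0.0747), Itgb1 (0.0686), Igf2r (0.0522) and Cd151 (0.0515), and it changed no other of their calls. Libraries with the same number did not deviate together (correlations -0.067, -0.0021 and -0.059 across genes), and no library correlated best with its own number. With 3 libraries per group, each set against its group mean, such values cannot show whether the numbers mark the pairs of mice. The labels do not tie the numbers to pairs, so the block was used only as an alternative. Few counts limit Hgfac, Spint1 and Spint2, the spread between controls limits Hgf, and 3 libraries per group limit every test.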
